A study of Mus musculus with 9 samples.

Results

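Cytochrome P450 genes encode haem enzymes that add oxygen to small molecules, and they were taken here as the rows of the deposited table whose symbol is Cyp followed by a family number, a subfamily letter and a member number, without Cyp51 and without pseudogenes marked -ps. The rule found 76 genes among the 22161 rows, and 50 of them were abundant enough to be tested, with a mean normalized count of at least 10, among 15740 genes tested in all. Poly(A) RNA was sequenced from whole kidneys of C57BL/6 mice, 3 in each of 3 groups: DKO, the double knockout labelled Pkd2+Ift88, which carries Ift88fl/fl and Pkd2fl/fl with Pax8rtTA and TetO-cre, KO, the knockout labelled Pkd2, which carries Pkd2fl/fl with Pax8rtTA and TetO-cre, and WT, labelled wild type. Every mouse, WT included, was given doxycycline by mouth at 2 mg/ml for 2 weeks, beginning on postnatal day 28, and kidneys were collected at 10 weeks. Doxycycline switches on the cre through rtTA, which the Pax8 promoter directs to kidney tubule epithelium, so the alleles are deleted in tubules while the other cells of the kidney keep theirs. The labels do not say whether WT mice carry either transgene or a floxed allele, and they give no sex.

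Pkd2 encodes the cation channel polycystin-2, whose human counterpart is mutated in polycystic kidney disease, and Ift88 encodes a transport protein needed to build cilia. The values are read counts per gene divided by a size factor for each library, and are called normalized counts. Normalized totals were 40454151 to 42874467 per library, and the libraries held 37056843 to 47314829 reads in genes. Pkd2 averaged 4687 ± 789 normalized counts in DKO, 5118 ± 414 in KO and 14095 ± 375 in WT (SD, n = 3 each). Ift88 averaged 752 ± 71.4 in DKO, 1140 ± 66.0 in KO and 1085 ± 41.0 in WT (SD, n = 3 each). All 9 libraries held transcripts of the Y-linked gene Ddx3y, at 3130 to 4170 normalized counts, with 4.35 to 20.4 of Xist, the transcript of the inactive X chromosome. By these transcripts all 9 mice were male. The mouse names of WT 3 and KO 3 carry another prefix than those of their group mates, and the DKO mice have a prefix of their own, so the prefix and the genotype cannot be told apart.

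In the kidney, P450 enzymes sit mostly in the endoplasmic reticulum of proximal tubule cells, where P450 reductase hands them electrons, and a smaller set works in mitochondria with ferredoxin. They turn arachidonic acid into epoxides and hydroxylated lipids that act on vessels and salt transport, make and destroy the hormone form of vitamin D, and hydroxylate steroids, drugs and odorants. In mice many of them follow sex steroids and growth hormone, and close copies of one gene often lie side by side in clusters. Of the 76 genes, 15 lie on chromosome 4 with the Cyp2j and Cyp4a clusters, 13 on chromosome 7 with the Cyp2a and Cyp2b clusters and 13 on chromosome 19 with the Cyp2c cluster.

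Cyp2a4 and Cyp2a5 are close copies on chromosome 7, Cyp2a4 encoding a steroid hydroxylase and Cyp2a5 the mouse coumarin hydroxylase. Their sequence before the transcription start is printed because Cyp2a4 has the lowest fold change of the tested P450 genes in KO against WT and Cyp2a5 is its nearest copy. These are the 250 bases before each start in RefSeq, build GRCm38.p6, both on the + strand, at chr7:26306942-26307191 for Cyp2a4 and at chr7:26835089-26835338 for Cyp2a5, written 5′ to 3′ with the bases that differ in capitals.
Cyp2a4: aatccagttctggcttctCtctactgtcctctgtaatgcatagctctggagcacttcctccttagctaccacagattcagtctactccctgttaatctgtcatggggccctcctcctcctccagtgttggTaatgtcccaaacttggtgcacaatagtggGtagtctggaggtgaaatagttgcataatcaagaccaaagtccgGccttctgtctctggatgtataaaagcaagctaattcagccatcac
Cyp2a5: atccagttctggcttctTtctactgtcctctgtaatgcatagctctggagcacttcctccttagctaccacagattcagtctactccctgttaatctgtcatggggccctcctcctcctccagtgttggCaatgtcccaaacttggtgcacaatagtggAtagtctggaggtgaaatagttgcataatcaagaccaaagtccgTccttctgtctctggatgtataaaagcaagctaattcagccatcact
The windows, 528 kb apart, align over 249 bases, of which 245 (98.4%) are identical. Counted from 1 at the 5′ end of the Cyp2a4 window, with the Cyp2a4 base first, the differences are C19T, T131C, G161A and G205T. Both windows hold CAAAGTCC, the core of the motif of the liver and kidney receptor HNF4, at position 196 in Cyp2a4 and 195 in Cyp2a5, and the TATA box TATAAA at position 223 in Cyp2a4 and 222 in Cyp2a5. Searched on both strands, CAAAGTCC occurred for 10 of the 57 P450 genes with a promoter in RefSeq (17.5%) and in 393 of 32851 promoters in all (1.20%). TATAAA occurred for 19 of the 57 genes (33.3%) and in 12.4% of all promoters. A P450 gene was counted once if any promoter of it matched, while the share over all was counted by promoter, so the shares are not strictly alike. The rest of the 76 were not searched.

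Cyp2a4 fell in KO kidneys to 22.5% of its WT mean. Its normalized counts were 13808, 7394 and 7858 in DKO kidneys, 3859, 4578 and 8754 in KO kidneys, and 23660, 21374 and 31479 in WT kidneys. Each mutant mouse lay below every WT mouse, while DKO and KO overlapped. In whole kidney, fewer cells that transcribe a gene and less of its RNA per cell cannot be told apart. The log2 fold change was -2.23 ± 0.33 in KO against WT (SE; limma adjusted p = 0.0130), -1.44 ± 0.33 in DKO against WT (adjusted p = 0.146, DESeq2 adjusted p = 0.0420, limma with array weights 0.0397) and 0.79 ± 0.33 in DKO against KO (adjusted p = 0.42). All log2 fold changes here are on the log2(normalized count + 1) scale. Unless another test is named, adjusted p are two-sided Benjamini-Hochberg values from limma over the 15740 genes tested. A gene is called where the adjusted p is below 0.05. DESeq2 gave an adjusted p for 15725 genes in KO against WT and in DKO against KO, and for 14205 in DKO against WT. The KO call was lost without WT 2 (adjusted p = 0.0504), KO 1 (0.0511) or KO 2 (0.0624).

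Cyp2a5 had 11273, 5594 and 2513 normalized counts in DKO, 1932, 3520 and 7014 in KO, and 10633, 7951 and 13753 in WT. All 3 KO mice lay below all WT mice, and the DKO mice ran from below the WT range to inside it. The test gave -1.54 ± 0.57 in KO against WT (limma adjusted p = 0.197) and -0.96 ± 0.57 in DKO against WT (adjusted p = 0.559). The ratio of Cyp2a4 to Cyp2a5 was 1.22, 1.32 and 3.13 in DKO, 2.00, 1.30 and 1.25 in KO, and 2.23, 2.69 and 2.29 in WT. KO ratios were all below the WT ratios, and those of DKO spread on both sides. In GENCODE M21, 36.1% of the 50-base words of Cyp2a4 transcripts also occur in Cyp2a5, so how reads were shared between the copies is uncertain. The sum of both genes does not depend on that split, but it lacks any reads that were counted for neither copy. It was 25081, 12988 and 10371 in DKO, 5791, 8098 and 15767 in KO, and 34293, 29325 and 45232 in WT, so every mutant mouse was below every WT mouse in the sum too.

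**Figure D1:**
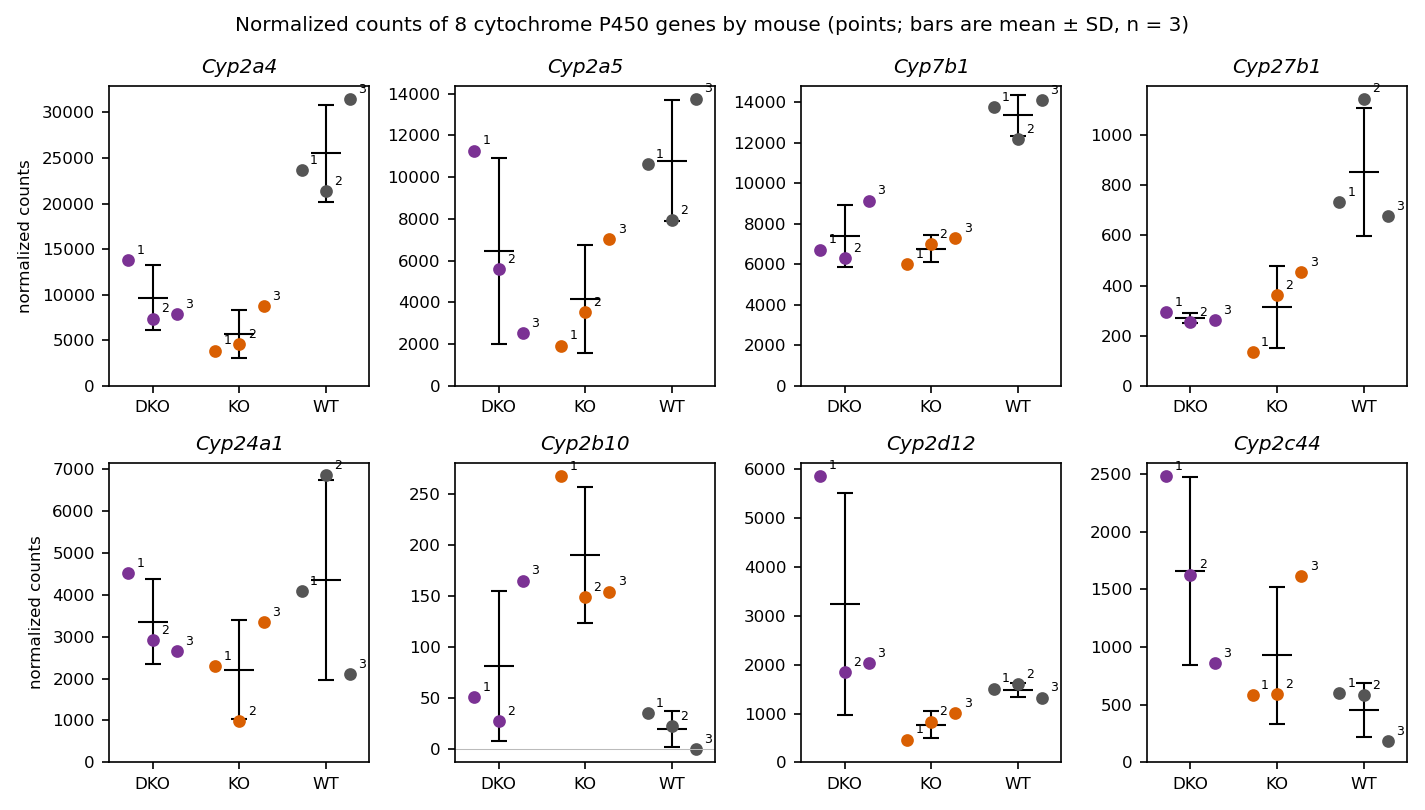
Normalized counts (y axis, linear) of 8 P450 genes in each mouse (points, numbered by replicate), with the mean and SD of 3 mice as bars, for DKO, KO and WT from left to right. Cyp2a4 and Cyp7b1 are lower in all 6 mutant mice than in any WT mouse, as is Cyp27b1, while Cyp24a1 and Cyp2c44 show mice of one group far apart.

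The comparison of KO with WT asks which P450 genes differed where Pkd2 was lost. That of DKO with KO asks which differed where Ift88 was lost as well, and that of DKO with WT which differed where both were lost. All are differences between groups, since name prefix and genotype cannot be told apart and the alleles of WT mice are not stated. These comparisons share groups and are not independent of each other. In KO against WT, 2 of the 50 tested P450 genes were called, Cyp2a4 and Cyp7b1, both lower, where 2.4% of all genes tested were called, 1.25% lower. At an unadjusted p below 0.05, 8 were higher and 13 lower in that comparison, beside 18% of all genes in either direction. In DKO against KO limma called 0 of 50, where 0.394% of all genes were called, with 6 higher and 1 lower at an unadjusted p below 0.05, beside 10.7% of all genes. In DKO against WT limma called 0 of 50, where 0.229% of all genes were called, with 7 higher and 4 lower at an unadjusted p below 0.05, beside 11.7% of all genes. By edgeR's quasi-likelihood test on the whole reads behind the values, the calls among P450 genes were Cyp2a4 and Cyp7b1 again in KO against WT and 0 in the other comparisons. Over all genes edgeR called 2.4% in KO against WT, 0.419% in DKO against KO and 0.21% in DKO against WT. DESeq2 on the same reads called 9 P450 genes in KO against WT, beside 7.45% of all genes, 1 in DKO against KO, beside 3%, and 4 in DKO against WT, beside 2.76%.

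The 50 tested genes were split in direction. In KO against WT, 24 had a higher and 26 a lower mean log2 value, and their median log2 fold change was -0.02, beside 0.00 over all genes. In DKO against KO, 28 were higher and 22 lower with a median of 0.07, and in DKO against WT 25 were higher and 25 lower with a median of 0.00. The KO and WT mice did not overlap for 20 of the 50 genes, 9 higher and 11 lower in KO, which is 40% beside 25.2% of all genes (12.4% higher, 12.8% lower). DKO and KO did not overlap for 9 genes (18%, beside 15.2% of all genes), and DKO and WT for 12 (24%, beside 18.3%). Summed over all 76 genes, P450 reads made up 0.914 to 1.18% of a library in DKO, 0.967 to 1.17% in KO and 0.989 to 1.05% in WT, so the ranges of the 3 groups overlap. Most of these reads came from Cyp4b1, Cyp2e1 and Cyp2j5. Without those genes the share was 0.260 to 0.331% in DKO, 0.252 to 0.285% in KO and 0.304 to 0.350% in WT. That share was lower in KO than in WT without overlap, while DKO overlapped with both.

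**Figure D2:**
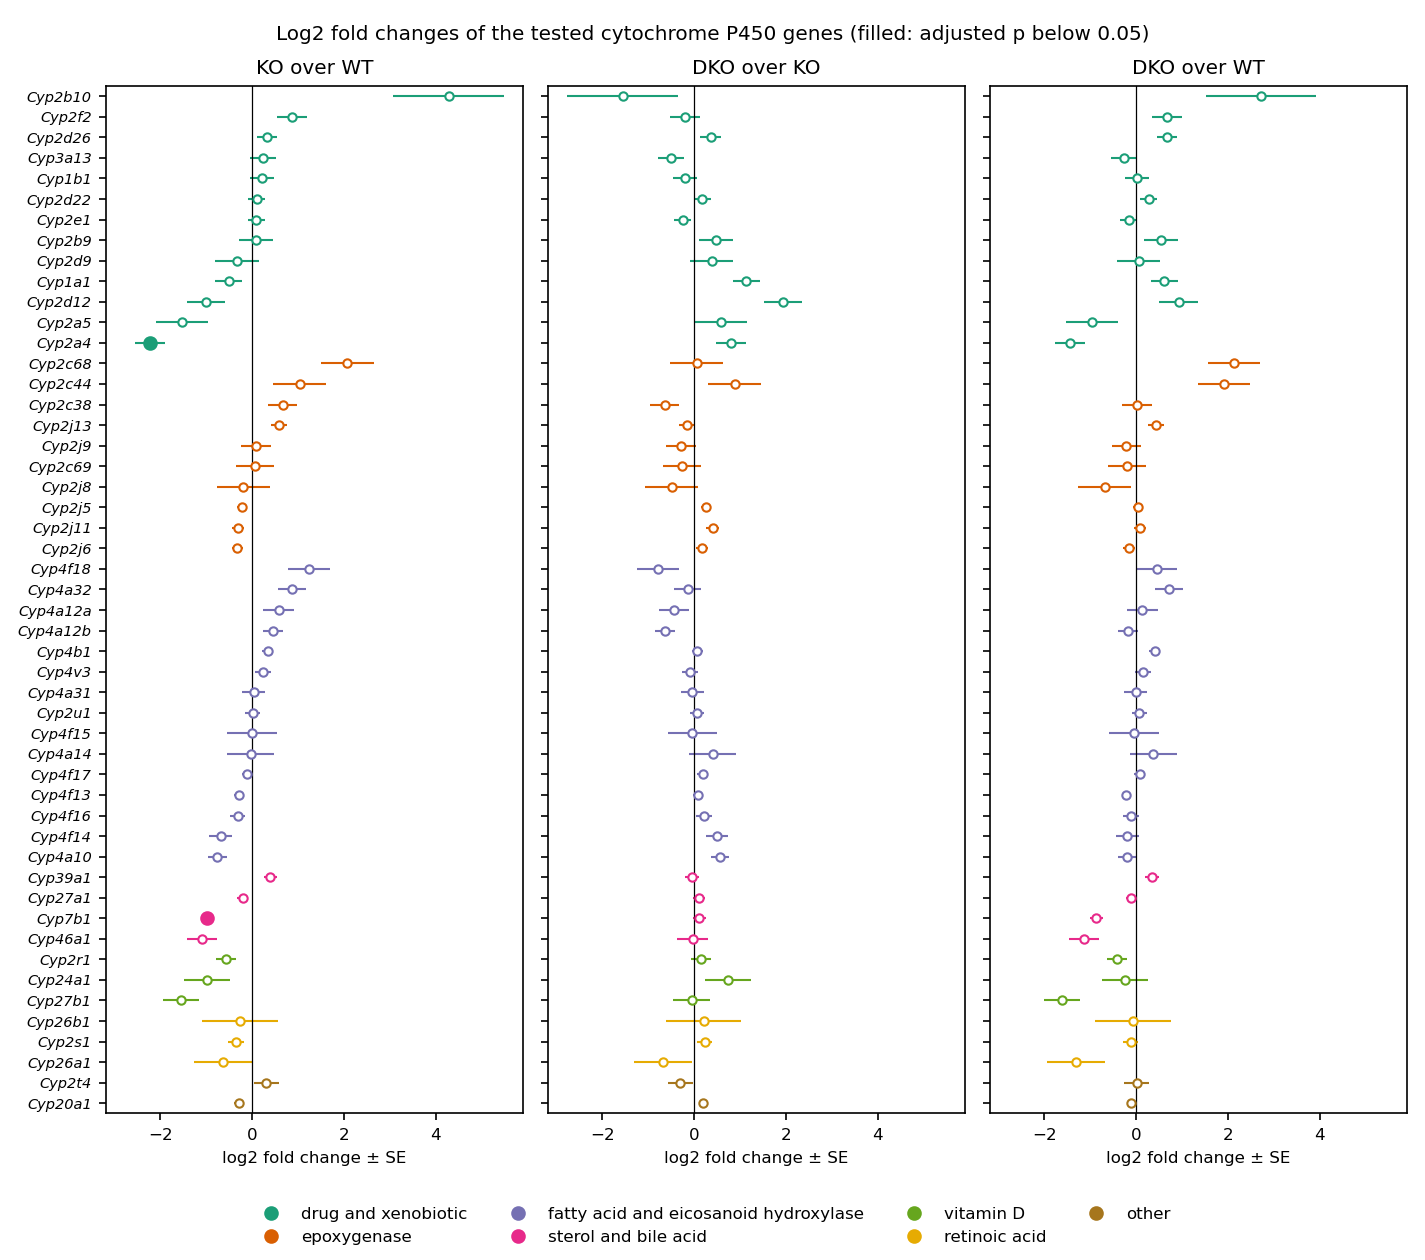
Log2 fold change (x axis, on the log2(normalized count + 1) scale; bars are SE) of the 50 tested P450 genes, ordered by role, in KO over WT, DKO over KO and DKO over WT from left to right, with called genes filled. The 2 genes called, Cyp2a4 and Cyp7b1, have fold changes of -2.23 and -0.98 in KO against WT, and Cyp2b10 has the highest value there, 4.28, with an SE of 1.21.

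Levels ranged widely. Per kilobase of exon, averaged over the 9 libraries, 13 genes lay above 1000 normalized counts, 17 between 100 and 1000, and 20 of the tested genes below 100. Cyp4b1, Cyp2e1 and Cyp2j5 led with 71260, 40126 and 28678 normalized counts per kilobase, followed by Cyp2a4 with 7848, Cyp2j13 with 5369 and Cyp4a12a with 5095. The first 3 together held 71.5 to 75.4% of all P450 counts in DKO mice, 73.2 to 75.7% in KO mice and 66.6 to 69.2% in WT mice.

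**Figure D3:**
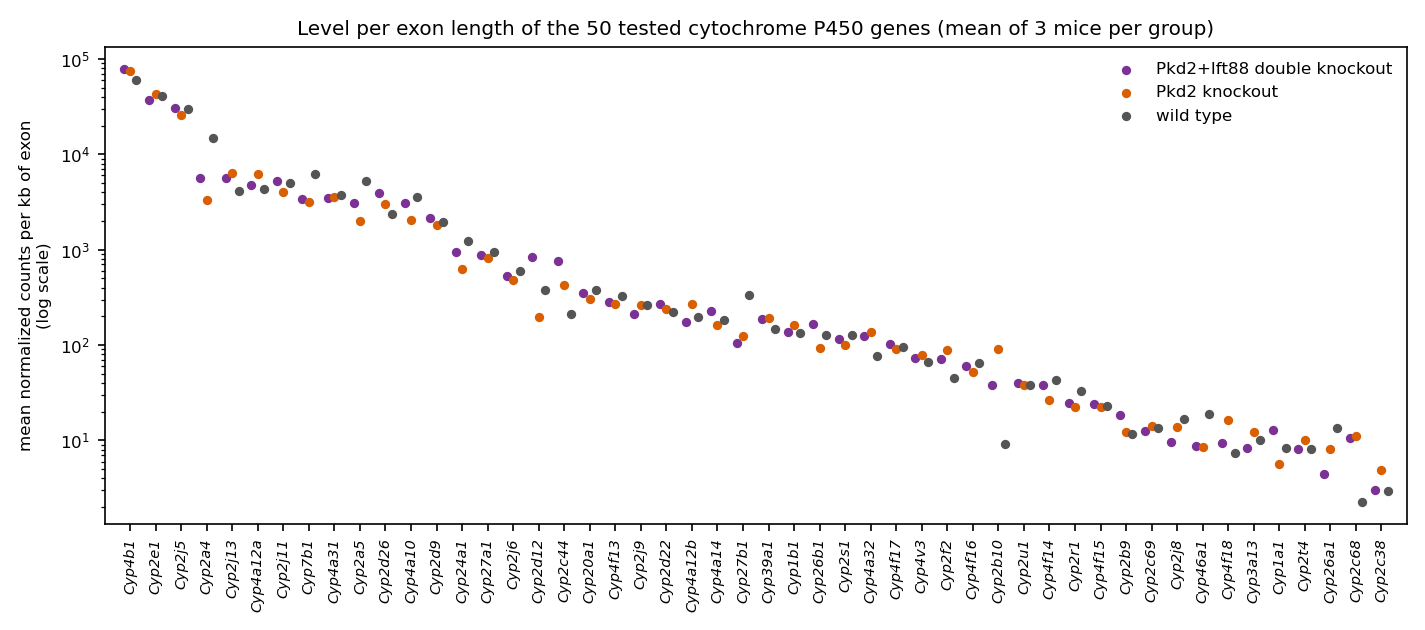
Normalized counts per kilobase of exon (y axis, log scale) of the 50 tested P450 genes (x axis, in order of level), as means of 3 mice in DKO, KO and WT, drawn in different colours from left to right for each gene. Cyp4b1, Cyp2e1 and Cyp2j5 stand above the rest, with means of 71260, 40126 and 28678 over the 9 mice.

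Among the 24 genes of drug and xenobiotic subfamilies, 13 were tested and Cyp2a4 alone was called, in KO against WT. Cyp2e1, which oxidizes ethanol and acetone, had 86030, 59618 and 91751 normalized counts in DKO, 88341, 78986 and 112776 in KO, and 95375, 88907 and 77538 in WT. The groups overlapped throughout, with a log2 fold change of 0.09 ± 0.19 in KO against WT (limma adjusted p = 0.849), a sign that turned, to -0.058, without KO 3.
Cyp2b10, the mouse gene that the receptor CAR induces on exposure to phenobarbital-like compounds, had 50.9, 27.2 and 165 normalized counts in DKO, 267, 149 and 154 in KO, and 35.2, 22.5 and 0 in WT. All KO mice lay above all WT mice, and among DKO mice DKO 3 lay inside the KO range while the others lay beside WT. The fitted log2 fold change of 4.28 ± 1.21 in KO against WT (limma adjusted p = 0.106) rests on the 0 of WT 3 and on the pseudocount. With a pseudocount of 10 it was 2.98 (adjusted p = 0.0493), and without WT 3 it was 2.66 (adjusted p = 0.0963).

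Cyp2d12, of the subfamily that metabolizes many drugs in mammals, had 5864, 1843 and 2031 normalized counts in DKO, 468, 835 and 1003 in KO, and 1511, 1603 and 1327 in WT. DKO lay above KO without overlap and also above WT, and KO lay below WT. DKO against KO gave 1.93 ± 0.42 (limma adjusted p = 0.102, DESeq2 adjusted p = 0.00805), KO against WT -1.01 ± 0.42 (limma adjusted p = 0.252) and DKO against WT 0.92 ± 0.42 (limma adjusted p = 0.438). Its neighbours in the Cyp2d cluster on chromosome 15 were named after their values were seen. Cyp2d26 had 5881, 9341 and 5744 normalized counts in DKO, 4091, 5284 and 6988 in KO, and 4076, 4045 and 4736 in WT. Its DKO mice lay above all WT mice and overlapped with KO, with 0.67 ± 0.22 in DKO against WT (limma adjusted p = 0.296). Cyp2d9, a testosterone hydroxylase of male mice, had 9111, 3861 and 4182 in DKO, 2431, 3064 and 8925 in KO, and 5133, 5911 and 4377 in WT. There DKO 1 and KO 3 stood far above their group mates, and all groups overlapped.

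Of the 17 genes of the Cyp2c and Cyp2j subfamilies, which hold the arachidonic acid epoxygenases, 10 were tested and limma called 0 in each comparison. At an unadjusted p below 0.05, 2 were higher and 2 lower in KO against WT, 2 higher in DKO against KO and 3 higher in DKO against WT. Over all genes, 18%, 10.7% and 11.7% passed that threshold in these comparisons. Cyp2j5, the main epoxygenase of mouse proximal tubule, had 67818, 68415 and 78531 normalized counts in DKO, 58103, 54890 and 66824 in KO, and 67518, 66496 and 76662 in WT. KO overlapped with WT in a single mouse, KO 3, and lay below DKO without overlap. The tests gave -0.23 ± 0.11 in KO against WT (limma adjusted p = 0.297) and 0.26 ± 0.11 in DKO against KO (adjusted p = 0.42). Cyp2j13, a related gene enriched in kidney, had 27324, 21491 and 30621 in DKO, 34230, 31151 and 23240 in KO, and 17758, 18899 and 21932 in WT. Its KO mice lay above all WT mice, the opposite side from Cyp2j5, with 0.58 ± 0.17 in KO against WT (limma adjusted p = 0.114). It passed by DESeq2 (adjusted p = 0.0137), and in limma with array weights (0.0029), without KO 3 (0.0484) and without WT 3 and KO 3 (0.0433). Cyp2j11, picked after its values were seen, had 10276, 10472 and 9530 in DKO, 7144, 6929 and 9055 in KO, and 8710, 8707 and 11469 in WT. DKO lay above KO without overlap, at 0.40 ± 0.13 (limma adjusted p = 0.285, with array weights 0.0255, without WT 3 and KO 3 0.0189).

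Cyp2c44, listed in RefSeq as Cyp2c23 and known in rodent kidney as an epoxygenase, had 2485, 1627 and 859 normalized counts in DKO, 583, 591 and 1613 in KO, and 599, 586 and 184 in WT. DKO lay above WT without overlap, while KO 3 stood apart from KO 1 and KO 2, which lay within the WT range. DKO against WT gave 1.91 ± 0.57 (limma adjusted p = 0.254) and KO against WT 1.03 ± 0.57 (adjusted p = 0.378). The KO value rested on replicate 3 of both groups, since without WT 3 and KO 3 it was -0.013.

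The 17 genes of the Cyp4 family and Cyp2u1, the fatty acid and eicosanoid hydroxylases, had 15 members tested, and limma called 0 in each comparison. At an unadjusted p below 0.05, 3 were higher and 3 lower in KO against WT, 1 higher and 1 lower in DKO against KO, and 2 higher in DKO against WT. The shares of all genes at that threshold were 18%, 10.7% and 11.7% in the same order. Cyp4b1, which hydroxylates short and medium-chain fatty acids and is the most abundant P450 transcript per kilobase here, had 189859, 152369 and 192382 normalized counts in DKO, 170185, 157293 and 182225 in KO, and 130428, 130672 and 141458 in WT. All 6 mutant mice lay above all WT mice. The differences were small on the log2 scale, 0.34 ± 0.12 in KO against WT (limma adjusted p = 0.178, DESeq2 adjusted p = 0.0322) and 0.40 ± 0.12 in DKO against WT (limma adjusted p = 0.252, DESeq2 adjusted p = 0.0141). Cyp4a12a, the androgen-driven arachidonic acid omega-hydroxylase of male mouse kidney, had 9131, 8621 and 16487 in DKO, 17383, 16578 and 11354 in KO, and 13788, 11513 and 6211 in WT. The 3 groups overlapped, with 0.58 ± 0.33 in KO against WT (limma adjusted p = 0.395). With 48.9% of its 50-base words shared with Cyp4a12b, the split of reads between these copies is uncertain.

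Cyp4a10, a fatty acid omega-hydroxylase driven by the receptor PPARα and picked after its values were seen, had 5297, 8495 and 5633 normalized counts in DKO, 3995, 4434 and 4439 in KO, and 6589, 6065 and 9659 in WT. KO lay below both other groups without overlap. KO against WT gave -0.76 ± 0.20 (limma adjusted p = 0.0943, DESeq2 adjusted p = 0.00578) and DKO against KO 0.56 ± 0.20 (limma adjusted p = 0.343). Cyp4a14, another PPARα target of the same cluster, had 597, 908 and 286 in DKO, 559, 419 and 287 in KO, and 301, 275 and 861 in WT. All groups overlapped, and replicate 3 was the lowest mouse in DKO and in KO and the highest in WT.

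Cyp7b1 fell in KO kidneys to 50.8% of its WT mean. It encodes the oxysterol and steroid hydroxylase that clears side-chain hydroxylated cholesterol and dehydroepiandrosterone. Its normalized counts were 6730, 6309 and 9157 in DKO, 6019, 7019 and 7312 in KO, and 13762, 12190 and 14122 in WT. The 6 mutant mice lay below the 3 WT mice with a wide gap, and DKO and KO overlapped. The tests gave -0.98 ± 0.14 in KO against WT (limma adjusted p = 0.0118), -0.87 ± 0.14 in DKO against WT (adjusted p = 0.0545, DESeq2 adjusted p = 7.3e-06, limma with array weights 0.0102) and 0.11 ± 0.14 in DKO against KO (adjusted p = 0.868). The KO call was lost without WT 1 (adjusted p = 0.0534) or KO 1 (0.0511), and DKO against WT passed without DKO 3 (0.0098), while DKO against KO turned to -0.053.

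The other tested sterol and bile acid genes were 3. Cyp27a1, the mitochondrial sterol side-chain hydroxylase, had 1786, 2250 and 1680 normalized counts in DKO, 1705, 1611 and 1985 in KO, and 2079, 2143 and 1903 in WT, with overlap in every comparison and -0.21 ± 0.12 in KO against WT (limma adjusted p = 0.391). Cyp46a1, the cholesterol hydroxylase best known from neurons and picked after its values were seen, had 37.6, 31.7 and 16.3 in DKO, 26.8, 28 and 28.3 in KO, and 80.3, 58.6 and 46.8 in WT. All mutant mice lay below all WT mice at this low level, with -1.10 ± 0.33 in KO against WT (limma adjusted p = 0.125, DESeq2 adjusted p = 0.0431, limma with array weights 0.0082). Cyp39a1, another oxysterol hydroxylase and also picked afterwards, lay on the other side, with 660, 608 and 462 in DKO, 604, 574 and 595 in KO, and 455, 507 and 394 in WT. KO was above WT without overlap at 0.39 ± 0.14 (limma adjusted p = 0.195).

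The vitamin D genes were 3, all tested, and limma called 0 in each comparison. At an unadjusted p below 0.05, 2 were lower in KO against WT, beside 18% of all genes in either direction. In DKO against WT 1 was lower at that threshold, beside 11.7% of all genes. Cyp27b1, the kidney enzyme that makes the hormone form of vitamin D, had 293, 254 and 264 normalized counts in DKO, 135, 362 and 452 in KO, and 732, 1145 and 678 in WT. Every mutant mouse lay below every WT mouse, and DKO mice were close together while KO mice were spread. Log2 fold changes were -1.56 ± 0.39 in KO against WT (limma adjusted p = 0.081, DESeq2 adjusted p = 0.00318) and -1.62 ± 0.39 in DKO against WT (limma adjusted p = 0.167, DESeq2 adjusted p = 0.000814). Limma also passed KO against WT without KO 3 (0.0455) and DKO against WT without KO 1 (0.0279).
Cyp24a1, which breaks the hormone down, had 4511, 2910 and 2646 in DKO, 2292, 992 and 3341 in KO, and 4079, 6858 and 2099 in WT. The groups overlapped, at -0.98 ± 0.50 in KO against WT (limma adjusted p = 0.339) and 0.73 ± 0.50 in DKO against KO (adjusted p = 0.705). Cyp2r1, the first hydroxylase of the pathway, chosen after its values were seen, had 57.0, 47.1 and 52.7 in DKO, 37.7, 45.8 and 59.5 in KO, and 78.3, 72.1 and 59.9 in WT. Both mutant groups lay below WT without overlap, with -0.56 ± 0.22 in KO against WT (limma adjusted p = 0.219). For KO this rests on 59.5 in KO 3 against 59.9 in WT 3, a gap smaller than a single read. The ratio of Cyp24a1 to Cyp27b1 counts was 15.4, 11.5 and 10.0 in DKO, 17.0, 2.74 and 7.39 in KO, and 5.57, 5.99 and 3.09 in WT. All DKO ratios exceeded all WT ratios, and the KO ratios ran from below the WT range to above the DKO range. Vdr, the receptor for the hormone, averaged 12870 ± 199 in DKO, 10645 ± 1451 in KO and 11971 ± 1201 in WT (SD, n = 3 each).

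Of the 4 retinoic acid genes 3 were tested, and limma called 0, as it did at an unadjusted p below 0.05. Cyp26b1, which breaks down retinoic acid, had 256, 2134 and 277 normalized counts in DKO, 419, 310 and 761 in KO, and 1345, 396 and 327 in WT. DKO 2 and WT 1 stood far above their group mates, and the sign of KO against WT, -0.27 ± 0.82 (limma adjusted p = 0.897), changed to 0.36 without WT 1 and to 0.02 without KO 2. Cyp2s1, reported to metabolize retinoids, had 638, 583 and 497 in DKO, 453, 455 and 560 in KO, and 750, 646 and 495 in WT, with overlap in every comparison.
The 4 steroid hormone genes Cyp11a1, Cyp11b1, Cyp17a1 and Cyp21a1, which make adrenal and gonadal steroids, were all under the minimum and not tested. Cyp17a1, the highest of them, had 17.3, 9.06 and 12.5 in DKO, 3.97, 9.34 and 10.7 in KO, and 9.04, 13.5 and 3.27 in WT. Of the remaining subfamilies, Cyp20a1, an orphan P450, had 799, 826 and 766 in DKO, 654, 735 and 702 in KO, and 796, 842 and 939 in WT. KO lay below both other groups, at -0.30 ± 0.09 against WT (limma adjusted p = 0.12, DESeq2 adjusted p = 0.0421, limma with array weights 0.0320). Cyp2t4, another orphan, had 15.3, 12.7 and 12.5 in DKO, 17.9, 15.9 and 16.6 in KO, and 16.1, 13.5 and 10.9 in WT, where KO and WT overlapped.

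The 26 genes under the minimum comprised 11 drug and xenobiotic, 7 epoxygenase, 4 steroid hormone, 2 fatty acid, 1 retinoic acid and 1 sterol gene, and none reached more than 17.3 normalized counts in any mouse. Mice of one group could stand apart within the tested genes. WT 3 was more than 2-fold from both group mates for 8 of the 50 genes (16%, beside 3.83% of all genes tested), 3 above and 5 below. For DKO 1 it was 6 genes (12%, beside 1.40%), for KO 3 it was 5 genes (10%, beside 4.29%), all above, and for the other 6 libraries 1 to 3 genes. Left out together, WT 3 and KO 3 took the number of P450 genes called in KO against WT to 5 of 50, beside 3.28% of all genes, with Cyp2a4, Cyp7b1 and Cyp2j6 lower and Cyp2j13 and Cyp4a31 higher.

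**Figure D4:**
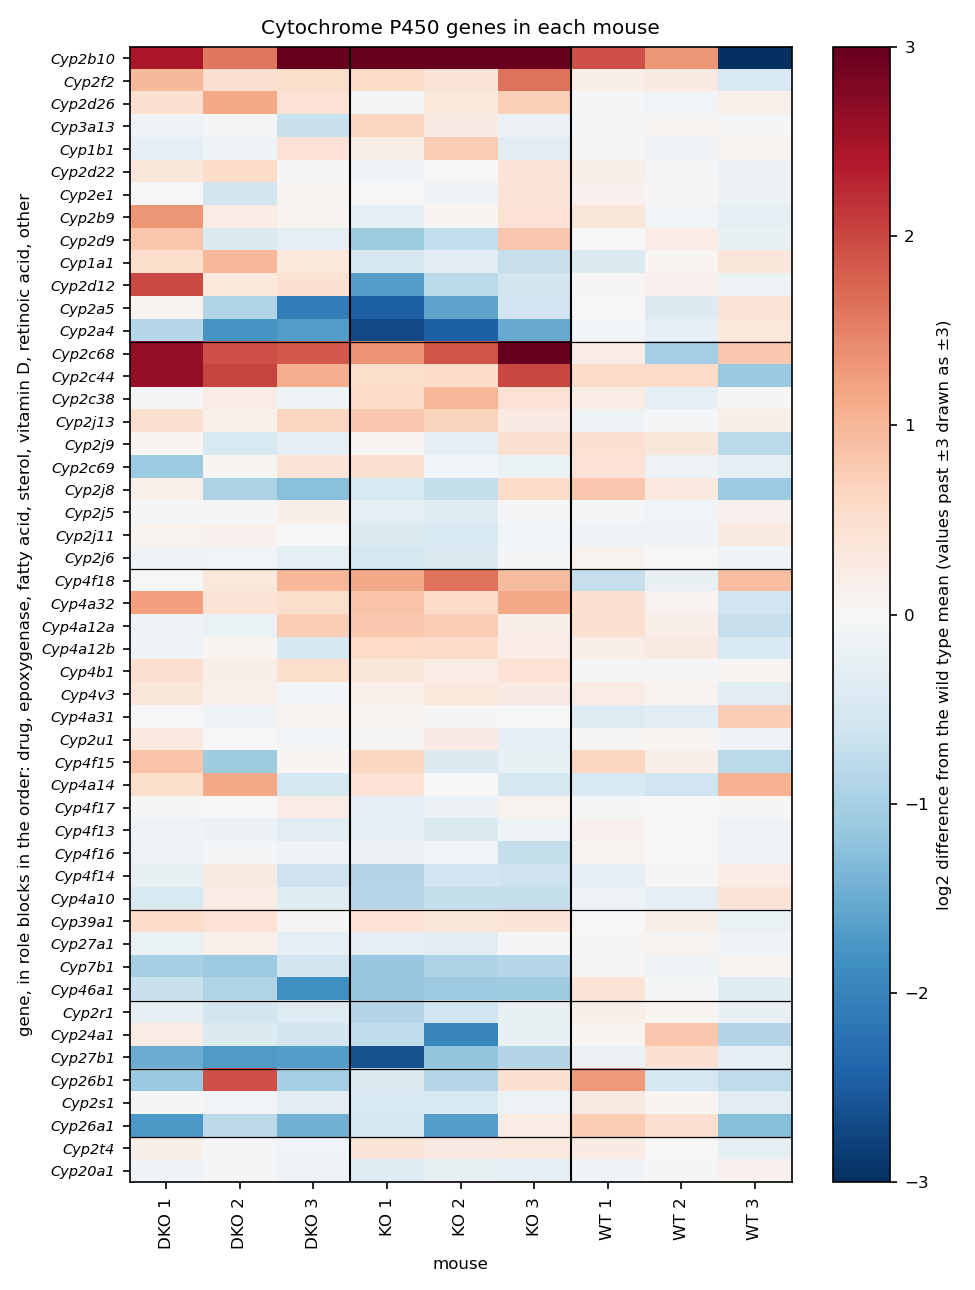
Log2 difference of each tested P450 gene (rows, by role) from its WT mean, on the log2(normalized count + 1) scale, in each mouse (columns: DKO, KO, WT). Cyp2a4 and Cyp7b1 are below the WT mean in all 6 mutant mice, while WT 3 departs from WT 1 and WT 2 by more than 2-fold in 8 genes.

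P450 enzymes depend on electron donors and on nuclear receptors that set their transcription, and 25 such partner and regulator genes of a list of 27 were tested. Limma and edgeR called 0 of the 25 in each comparison, and DESeq2 called 1 in DKO against KO and 1 in DKO against WT. At an unadjusted p below 0.05, 3 were higher and 3 lower in KO against WT, beside 18% of all genes in either direction. In DKO against KO 5 were higher and 1 lower, beside 10.7%, and in DKO against WT 3 higher and 2 lower, beside 11.7%. Median log2 fold changes were -0.11, 0.07 and 0.01 in that order of comparisons. Por, the reductase that supplies electrons to the microsomal enzymes, averaged 12670 ± 434 normalized counts in DKO, 13076 ± 1413 in KO and 15698 ± 1403 in WT (SD, n = 3 each), at -0.27 ± 0.09 in KO against WT (limma adjusted p = 0.183). Hnf4a, the receptor whose core motif was searched above, averaged 48353 ± 4135 in DKO, 45446 ± 2430 in KO and 41093 ± 1555 in WT (SD, n = 3 each), at 0.14 ± 0.09 in KO against WT (limma adjusted p = 0.404).

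The tissue was compared with markers of the cells a kidney sample can hold. Of 15 proximal tubule markers, limma called 1 higher and 1 lower in KO against WT, beside 2.4% of all genes, and 0 in the other comparisons. At an unadjusted p below 0.05, 1 was higher and 5 lower in KO against WT, 5 were higher in DKO against KO, and 3 higher and 3 lower in DKO against WT. That threshold was passed by 18%, 10.7% and 11.7% of all genes in these comparisons. KO and WT did not overlap for 8 of the 15 (53.3%, beside 25.2% of all genes), with 1 higher and 7 lower in KO. The median log2 fold change of the 15 was -0.22 there. Slc5a12, a lactate transporter, was higher by 1.04 (limma adjusted p = 0.0252), and Miox, an inositol oxygenase, fell by 0.66 on the log2 scale (adjusted p = 0.00904). The summed markers were 900237 to 957646 normalized counts in DKO, 859499 to 870297 in KO and 860843 to 924882 in WT. KO and WT overlapped, while DKO lay above KO without overlap. In DKO against KO, 12 of the 15 markers had a higher and 3 a lower mean log2 value. Of 8 androgen-responsive kidney genes limma called 0 in each comparison, with 1 to 2 at an unadjusted p below 0.05. Their sums were 789567 to 1191723 in DKO, 1082766 to 1303008 in KO and 1100339 to 1292926 in WT. Most of each sum was Kap, which averaged 774642 in DKO, 957698 in KO and 1025101 in WT. The sums of DKO 1 and DKO 2, 830854 and 789567, lay below every KO and WT mouse, while DKO 3 lay among them. Liver markers gave 0 called of 7 by limma, with 1 to 3 at an unadjusted p below 0.05. Their sums were 24541 to 25517 in DKO, 16892 to 19725 in KO and 20255 to 24692 in WT, lower in KO than in the other groups without overlap, and most of each sum was Apob, which kidney also transcribes. Adrenal markers summed to 182 to 225 in DKO, 190 to 251 in KO and 186 to 251 in WT, with 0 of the 2 that could be tested called or at an unadjusted p below 0.05. Star made up 101 to 161 and Akr1b7 61.6 to 113 of these counts, the ACTH receptor Mc2r had 1 to 14 in the 9 libraries, and Hsd3b1, Dbh, Pnmt and Chga were at 0 in most libraries and at most 3.27 in any. Macrophage markers summed to 4157 to 4411 in DKO, 4656 to 5496 in KO and 3927 to 4376 in WT, above both other groups in KO. Fibroblast markers summed to 5646 to 6982 in DKO, 9637 to 15334 in KO and 6988 to 9809 in WT, lowest in DKO, where Col1a1, a fibrillar collagen, was called lower than in KO (-2.06 ± 0.29, limma adjusted p = 0.0335). Adipose and erythroid markers were highest in KO 3, at 2632 and 5422, against 242 to 1100 and 78.6 to 902 in the other 8 libraries. The part of these cell types in the P450 results was not tested.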

How the data were processed

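RNA was measured in 9 kidneys, 3 in each group, grouped by the labels. The deposited values are a signal made by the authors, namely gene counts over a size factor, with STAR 2.5.0, HTSeq 0.6.1 and DESeq2 named in the submitters' processing notes. Genome build, annotation, strand setting and the release of DESeq2 are not given in the sources used. Reads of overlapping or antisense genes therefore cannot be told apart. One read was worth 0.906 to 1.13 in a library, and 100% of values were whole multiples of it, within a tolerance of 0.01. In KO 1 and WT 1 this step lies close to 1.

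The P450 genes and lists were chosen with earlier results of these data known. Limma 3.58.1 (R 4.3.3) was fitted to log2(normalized count + 1) in all 9 libraries with a mean for each group, a trend on intensity and no block, over genes averaging at least 10. The fit takes mice of a group as independent, and the sources do not say whether any are related. The log scale understates changes of low genes. Named were genes called in any comparison, the 2 most abundant of each role, and the 5 largest changes per comparison with a mean of at least 50. Others are marked in the text, except Cyp4a14, Cyp2j6, Cyp4a31, Cyp11b1 and Cyp21a1, also named after their values were seen. Cyb5a and Nr5a1 are not analysed here.

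Alternatives were a pseudocount of 0.1 or 10, no minimum or a mean of 50, TMM or quantile scaling, a fit without the trend, array quality weights, a fit to the groups compared alone, the replicate block, a minimum log2 fold of 1, each library left out, and the recovered reads in edgeR 4.0.16 and in DESeq2 1.42.0. Leaving out WT 3 and KO 3 together was chosen after seeing the data. Exon lengths, chromosomes and shared words came from GENCODE M21, and promoters from RefSeq GRCm38.p6, which matched 57 of the 76 genes. No counting intervals are given, since reads carry no molecular identifiers.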

Additional observations from a re-analysis of the deposited data

How the results depend on the processing

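Of 637 values of single P450 genes under other settings, 597 kept their direction and side of the threshold, 28 passed it, 5 no longer passed and 7 changed sign. Those 7 were Cyp2e1 in KO against WT with array weights (-0.085), without WT 3 and KO 3 (-0.14) and without KO 3 (-0.058), Cyp2c44 in KO against WT without WT 3 and KO 3 (-0.013), Cyp26b1 in KO against WT without WT 1 (0.36) or KO 2 (0.02), and Cyp7b1 in DKO against KO without DKO 3 (-0.053). None of these 7 was called. Leaving out one library, these values ran from -0.058 to 0.20 for Cyp2e1, from -0.66 to 0.36 for Cyp26b1 and from -0.053 to 0.22 for Cyp7b1.

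P450 genes called in KO against WT, 2 as reported, were 23 with array quality weights (6 higher, 17 lower), 9 with DESeq2, 5 without WT 3 and KO 3, 1 at a log2 fold of at least 1, and 0 to 4 leaving out one library, with 0 without KO 1. Array weights also passed Cyp2a5, Cyp2b10, Cyp2d12, Cyp2j5, Cyp2j6, Cyp2j11, Cyp2r1, Cyp2s1, Cyp24a1, Cyp27a1, Cyp27b1, Cyp39a1, Cyp4a10 and Cyp4b1 there, named above without that setting. P450 genes called in DKO against KO, 0 as reported, were 3 with array weights (Cyp2d12, Cyp2j11 and Cyp4a12b), 1 with DESeq2, 1 without WT 3 and KO 3 and 0 leaving out one library. In DKO against WT, 0 as reported, they were 2 with array weights, 4 with DESeq2, 1 with only the groups compared, and 0 to 1 leaving out one library. Over all genes, KO against WT gave 3222 with array weights, 517 without WT 3 and KO 3, 1172 with DESeq2, 161 at a log2 fold of at least 1 and 70 to 436 leaving out one library. DKO against KO gave 614 with array weights, 472 with DESeq2, 31 with quantile scaling, 26 with only the groups compared, 308 without WT 3 and KO 3, and 8 to 154 leaving out one library. DKO against WT gave 295 with array weights, 392 with DESeq2, 111 without WT 3 and KO 3, and 18 to 58 leaving out one library. Partner and regulator genes called were 4, 1 and 1 in these comparisons with array weights, 1 in DKO against KO and 1 in DKO against WT with DESeq2, and 1 in DKO against KO without WT 3 and KO 3. The causes were not tested.

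Deviations from the group mean correlated at -0.142 to 0.215 between same-numbered mice of different groups, and at -0.230 to 0.173 between mice of different numbers. With 3 mice per group, these values can neither show nor exclude a pairing by replicate number. With the replicate block, calls over all genes were 217 in KO against WT, 15 in DKO against KO and 20 in DKO against WT, and among P450 genes 2, 0 and 0, unchanged. Not every library correlated best with its own number. The 26 P450 genes under the minimum of 10 were not tested, and a difference in them is not assessed at this depth.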
